A study of Homo sapiens with 16 samples.

Results

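The NF-kB target and chemokine genes examined here were CXCL1, CXCL2, CXCL3, CXCL8 (also called IL8), CCL20, IL1A, IL6, TNFAIP3, NFKBIA and BIRC3. They were taken from the array by gene symbol or older symbol and not by their signals. Of these 10 genes, 9 had probe sets that the platform annotation assigned to them alone, 15 probe sets in all, of 19775 genes with such probe sets on the array. BIRC3 was named by no such probe set and no value is given for it. Where a gene had several probe sets, counts use the brightest, and CCL20 was too dim for any test.

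The samples were 16 Affymetrix expression arrays of HCT116 and RKO, established human colon cancer cell lines, with 8 conditions per line and 1 array per condition. The treatments were PJ-34, 5-aza-dC and TSA, each alone, in each pair and all together, and an untreated control, over 3 days. PJ-34 is an inhibitor of poly(ADP-ribose) polymerase, 5-aza-dC (5-aza-2′-deoxycytidine, decitabine) an inhibitor of DNA methyltransferases and TSA (trichostatin A) an inhibitor of histone deacetylases. The study's text gives 5-aza-dC at 0.5 µM and TSA at 150 nM in both lines, PJ-34 at 3 µM in HCT116, and for RKO a dose of PJ-34 of 2 µM in one place and 3 µM in another. A line in culture lacks the immune and stromal cells of a tumor. No condition was repeated, so a drug was tested by setting the 4 arrays that held it against the 4 that did not.

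Every array had been scaled to nearly the same trimmed mean signal, 1000.14 to 1000.16 units. The epithelial markers passed 100 units in at least 4 arrays for 8 of 9 genes in HCT116 and 6 of 9 in RKO, where KRT19 stayed between 4.95 and 18.2 units and CDH1 between 3.9 and 117 units. The summed signal of 6 leukocyte markers was 482 to 907 units in HCT116 and 401 to 576 units in RKO. For 6 fibroblast markers it was 606 to 1028 units in HCT116 and 759 to 1121 units in RKO, and for 3 endothelial markers 214 to 463 units in HCT116 and 218 to 454 units in RKO. In RKO, 36 probe sets were at least 4-fold higher in the 5-aza-dC, 5-aza-dC/TSA and PJ-34/5-aza-dC/TSA arrays than in the control, TSA and PJ-34/TSA arrays. Their median log2 ratio to the control array was 4.18 in the array that carries the label PJ-34 and 0 in that carrying PJ-34/5-aza-dC, the reverse of what the labels say about 5-aza-dC. These 2 RKO arrays of doubtful label keep their labels here, and the values named for members in RKO or between the lines that change with them by over 1.5 times, or lose or gain a call, are given with and without them.

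NF-kB is a family of dimeric transcription factors held in the cytoplasm by IkB proteins. Signals such as tumor necrosis factor, interleukin-1 or bacterial products activate the IkB kinases, IkB is degraded, and the freed dimers enter the nucleus and bind short κB sites in promoters and enhancers. Among their targets are chemokines that attract neutrophils and lymphocytes to the gut wall, and genes for the pathway's own brakes, which is why NF-kB responses are brief when the signal ends. In colon epithelium and its tumors, CXCL8 and CXCL1 to CXCL3 are the familiar neutrophil attractants of this program, and κB sites work together with AP-1 and C/EBP sites at several of these genes.

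CXCL1, CXCL2, CXCL3 and CXCL8 lie in the CXC chemokine cluster of chromosome 4, from CXCL8 at chr4:73740569-73743716 through CXCL1 at chr4:73869393-73871308 and CXCL3 at chr4:74036589-74038689 to CXCL2 at chr4:74097040-74099195 (GRCh38.p14). Because these genes were grouped as NF-kB targets, the 110 bases before the annotated start of 8 members are shown from RefSeq promoter windows, read 5′ to 3′ along the gene's strand, with capitals marking each match to the NF-kB consensus or to GGAATTTCC on either strand.
CXCL1, chr4:73869283-73869392, plus strand: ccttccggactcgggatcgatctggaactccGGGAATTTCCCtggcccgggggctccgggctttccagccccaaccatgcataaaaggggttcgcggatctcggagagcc
CXCL2, chr4:74099196-74099305, minus strand: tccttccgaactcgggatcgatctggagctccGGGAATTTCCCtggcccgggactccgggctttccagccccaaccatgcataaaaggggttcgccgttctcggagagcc
CXCL3, chr4:74038690-74038799, minus strand: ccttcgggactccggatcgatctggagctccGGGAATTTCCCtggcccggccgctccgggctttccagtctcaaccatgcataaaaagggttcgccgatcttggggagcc
CXCL8, chr4:73740459-73740568, plus strand: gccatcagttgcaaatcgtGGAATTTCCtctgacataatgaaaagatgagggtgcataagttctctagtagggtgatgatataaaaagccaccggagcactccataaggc
IL6, chr7:22727090-22727199, plus strand: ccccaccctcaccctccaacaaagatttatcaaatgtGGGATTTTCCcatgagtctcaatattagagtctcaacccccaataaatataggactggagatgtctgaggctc
IL1A, chr2:112784494-112784603, minus strand: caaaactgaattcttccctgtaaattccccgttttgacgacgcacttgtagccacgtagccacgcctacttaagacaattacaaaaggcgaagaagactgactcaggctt
TNFAIP3, chr6:137867149-137867258, plus strand: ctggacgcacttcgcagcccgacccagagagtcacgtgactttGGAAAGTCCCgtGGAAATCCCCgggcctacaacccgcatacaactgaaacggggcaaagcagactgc
NFKBIA, chr14:35404750-35404859, minus strand: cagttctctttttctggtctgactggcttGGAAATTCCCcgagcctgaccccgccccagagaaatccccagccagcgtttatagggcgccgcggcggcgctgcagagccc

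CXCL1 and CXCL3 carried the consensus match at position -79 and CXCL2 at position -78, counted from the annotated start, each with a second match 1 base further on the opposite strand and GGAATTTCC within it. Lined up on that site without gaps, the promoters of CXCL1 and CXCL3 were identical at 90 of 100 bases, and those of CXCL1 and CXCL8 at 32 of 100. CXCL8 had GGAATTTCC at position -91, TATAAA at -31 and the AP-1 type motif TGANTCA at -137, and no match to the full consensus. IL6 had the consensus at -73, and TNFAIP3 and NFKBIA had it on the opposite strand, from -67 and -55 in TNFAIP3 and from -81 in NFKBIA. The windows of CCL20 and BIRC3, not printed, held 1 and 2 consensus matches on the opposite strand. Neither RefSeq window of IL1A, a gene with more than 1 annotated start, held a match to the consensus or to GGAATTTCC, and each held TGANTCA at 2 positions. Of all 35116 promoter windows of 300 bases, 11.3% held the consensus on either strand, 0.461% held GGAATTTCC, 7.71% held TGANTCA and 11.5% held TATAAA. These are matches of letters and not measured binding sites. CpG dinucleotides, the bases that DNA methyltransferases act on, numbered 22, 22 and 24 in the windows of CXCL1, CXCL2 and CXCL3, 35 in TNFAIP3 and 22 in NFKBIA, but 4 in CXCL8, 3 in CCL20, 8 in IL1A and 7 in IL6, beside a median of 14 over all windows.

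The members differed widely in signal. NFKBIA, which encodes IkBα, the inhibitor that NF-kB itself induces, was the brightest in both lines, with a lowest, median and highest signal of 2908, 3475 and 4133 units over the 8 arrays of HCT116 and of 2961, 3464 and 4445 units in RKO. A level on these arrays of whole cultures cannot tell fewer expressing cells from less RNA per cell. TNFAIP3, which encodes the ubiquitin-editing enzyme A20, a second brake of the pathway, had 294, 512 and 646 units in HCT116 and 304, 467 and 679 units in RKO. CXCL8 had 279, 502 and 605 units in HCT116 and 140, 280 and 554 units in RKO. The remaining chemokines and cytokines were dimmer in most arrays, and signals of different genes are set side by side here only to show which were near the dim end of the array, since probes differ in brightness. CXCL3 ranged over 51.8 to 220.3 units in HCT116 and 16.1 to 260 units in RKO, and IL6 over 5.26 to 175 units in HCT116 and 36.3 to 199 units in RKO. CCL20, the ligand that draws CCR6-bearing lymphocytes, was below 32 units in every HCT116 array and at most 58 units in RKO, except for 368 units in the RKO array with 5-aza-dC/TSA.

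**Figure D1:**
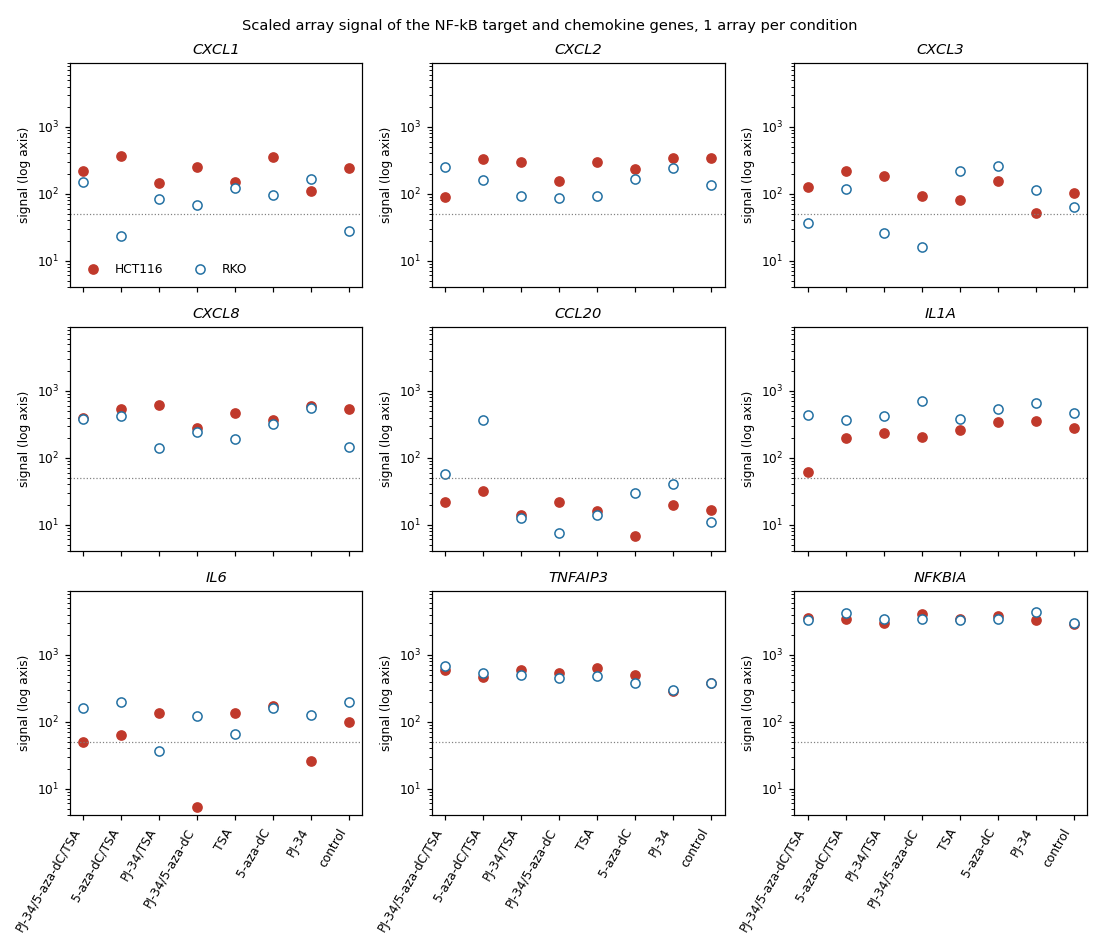
Each panel plots the scaled signal of 1 gene on a log axis in the 8 conditions of HCT116 (filled) and RKO (open), 1 array per point, with the untreated control at the right and the dotted line at the floor of 50 units used in the tests. NFKBIA stayed between 2908 and 4445 units in all 16 arrays, whereas CXCL1, CXCL3, CCL20 and IL6 had arrays below 50 units.

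Dim genes were measured with more spread. The median residual SD, on the log2 scale, of probe sets averaging under 7 log2 units was 0.724 in HCT116 and 0.707 in RKO. For those averaging 11 log2 units and above it was 0.163 in HCT116 and 0.131 in RKO. On this scale CXCL1, CXCL3 and IL6 averaged 6.40 to 7.73 log2 units in HCT116 and 6.48 to 6.94 in RKO, so they lay near the noisy end. NFKBIA averaged 11.7 in HCT116 and 11.8 in RKO.

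The line itself gave the differences that passed the test. CXCL8 was higher in HCT116 than in RKO, IL1A was lower in HCT116, and the dimmer CXCL1 was also higher in HCT116. These were 3 of the 8 members tested, while 43.8% of all probe sets tested passed in the same comparison, a share near that of the members. The neutrophil attractant CXCL1 had a lowest, median and highest signal of 109, 233 and 372 units in HCT116 against 23.7, 89.7 and 167 units in RKO. HCT116 was higher in 7 of the 8 matched conditions, the exception being the RKO array labelled PJ-34. The log2 difference, HCT116 minus RKO, was 1.25 (SE 0.336, adjusted p = 0.0063 in limma) and 1.38 (adjusted p = 0.0268) without the 2 RKO arrays of doubtful label. Only 3 of 8 RKO arrays reached 100 units for CXCL1 and 2 lay under 50 units, so it entered this test through its HCT116 arrays and had to be the brighter there, and its difference rests partly on floored values. CXCL8 was higher in HCT116 in 8 of 8 conditions, with 535 units in HCT116 and 144.5 units in RKO in the untreated arrays. Its log2 difference was 0.77 (SE 0.235, adjusted p = 0.0143), and 1.06 without the 2 RKO arrays of doubtful label. The ranges overlapped, since 4 RKO arrays had 319 units or more while the lowest HCT116 array had 279 units. The call for CXCL8 was lost without the RKO control array (0.60, adjusted p = 0.0606), without the RKO array with PJ-34/TSA (0.56, adjusted p = 0.0613) and without the HCT116 array with PJ-34/TSA (0.68, adjusted p = 0.0572). A second, dimmer probe set of CXCL8 differed by 0.34 (SE 0.324, adjusted p = 0.443).

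IL1A, which encodes interleukin-1α, an alarm cytokine stored in epithelial cells, had 61.2, 251 and 352 units in HCT116 and 367, 449 and 712 units in RKO. The arrays of the lines did not overlap, HCT116 was lower in 8 of 8 conditions, and the log2 difference was -1.15 (SE 0.214, adjusted p = 3.77e-04). It ranged from -1.25 to -0.998 over the alternatives tried and passed the test in each. The second probe set of IL1A, too dim to be tested, did not show this. It averaged 6.13 log2 units in HCT116 and 5.97 in RKO after flooring, with 5 of 8 and 6 of 8 arrays under 50 units. CXCL2, a further neutrophil attractant, had the higher signal in HCT116 in 7 of 8 conditions, by 0.77 (SE 0.299), and did not pass the test (adjusted p = 0.0504). The exception was the array with all 3 drugs, with 89.6 units in HCT116 and 247.5 units in RKO. Without both RKO arrays of doubtful label the difference was 0.511 (SE 0.41, adjusted p = 0.387). It passed the test in 3 of 21 alternatives, without the array with all 3 drugs of HCT116 (adjusted p = 0.0157) or of RKO (0.00792) and without the RKO array labelled PJ-34 (0.0454). The intervals of the brakes spanned 0. NFKBIA differed by -0.05 (95% interval -0.24 to 0.13), or 0.000934 without the 2 RKO arrays of doubtful label, and TNFAIP3 by 0.09 (95% interval -0.26 to 0.45). CXCL3 (0.30, SE 0.37) and IL6 (-0.55, SE 0.364) had adjusted p-values of 0.561 and 0.254. Without the 2 RKO arrays of doubtful label the differences were 0.798 for CXCL3 (SE 0.492, adjusted p = 0.244) and -0.279 for IL6 (SE 0.521, adjusted p = 0.74).

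The genes around the members in the pathway differed between the lines in both directions. Among other NF-kB targets, 8 of 21 genes tested were higher and 8 lower in HCT116, beside 21.1% higher and 22.8% lower of all probe sets tested, against which the counts of the other lists are also to be read. Over all 44 probe sets of these targets, 20 were higher and 11 lower. BCL2A1, an anti-apoptotic member of the BCL2 family, had 7.65 to 105.5 units in HCT116 and 9897 to 16780 units in RKO, a log2 difference of -7.64 (SE 0.161, adjusted p = 9.78e-15) with signals under 50 set to 50. It entered this test through its RKO arrays and had to be the brighter there, so the size of its difference rests partly on floored values. The cytokine gene IL32 differed by -5.07, with 85.6 to 413 units in HCT116 and 6813 to 8680 in RKO. IER3, an immediate-early target of NF-kB, went the other way, with 42780 to 75380 units in HCT116 and 10160 to 20030 units in RKO (2.03, SE 0.0796). Each of these differences was larger in size than that of any member. Of the IkB proteins and other inhibitors, by their brightest probe sets, 2 of 7 were lower in HCT116, namely NFKBIZ, a nuclear IkB protein that acts with NF-kB at a subset of its targets (-3.46, SE 0.13), and CYLD, a deubiquitinase that restrains the pathway (-1.49, SE 0.176). Over all 22 probe sets of these genes, 3 were higher and 4 lower, and the 3 higher were dimmer probe sets of NFKBIB (0.707) and OTUD7B (0.671 and 1.68). Of the NF-kB subunits, NFKB1 (-0.71) and REL (-0.70) were lower and NFKB2 (0.49) higher in HCT116, 3 of 5. Over all 12 probe sets of the subunits, 2 were higher and 2 lower.

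Upstream, 4 of 16 kinases and adaptors were higher and 6 lower in HCT116, the kinase IRAK1 by -1.46, the adaptor TRAF5 by -1.34 and IKBKB, which encodes the kinase IKKβ, by -0.89. Of the ligands and receptors that switch the pathway on, 2 of 13 were higher and 3 lower. IL1R1, the signaling receptor for interleukin-1α, had 546 to 1200 units in HCT116 and 7.79 to 216 units in RKO, a log2 difference of 3.25 (SE 0.22, adjusted p = 7.2e-09). The HCT116 arrays of IL1R1 alone sufficed for its entry into this test, and the size of its difference rests partly on floored RKO values. HCT116, the line with the lower IL1A signal, had the higher IL1R1 signal, and a link between them was not tested. TLR5, the flagellin receptor, differed by 1.496, with 165 to 353 units in HCT116 and 36.2 to 226.6 units in RKO, so floored values enter it also. CD40 differed by -0.62. Of the receptors of the members, 2 of 4 were higher and 2 lower, with the decoy receptor IL1R2 at 1.20 and the interleukin-6 receptor chains IL6R at -1.21 and IL6ST at -0.91. IL1R2 had 28.3 to 244.5 units in HCT116 and 6.1 to 83.95 units in RKO. It entered this test through its HCT116 arrays and had to be the brighter there, and its difference rests partly on floored values. Floored values also enter the difference of IL6R, whose lowest HCT116 array had 15.3 units. Of 11 AP-1 and immediate-early genes, 5 were higher and 4 lower, among them JUN at -3.12, ATF3 at 3.22 and FOSL1 at -1.45. Counted over all probe sets, 5 were higher and 10 lower of 30 for the kinases and adaptors. For the ligands and receptors 3 were higher and 7 lower of 23, and for the receptors of the members 2 and 7 of 10. For the AP-1 and immediate-early genes 11 were higher and 7 lower of 24. The median difference over all probe sets tested was -0.01. NFKB2 lost its call in 15 of the 21 alternatives tried, and the other pathway genes named for this comparison passed the test in every one.

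**Figure D2:**
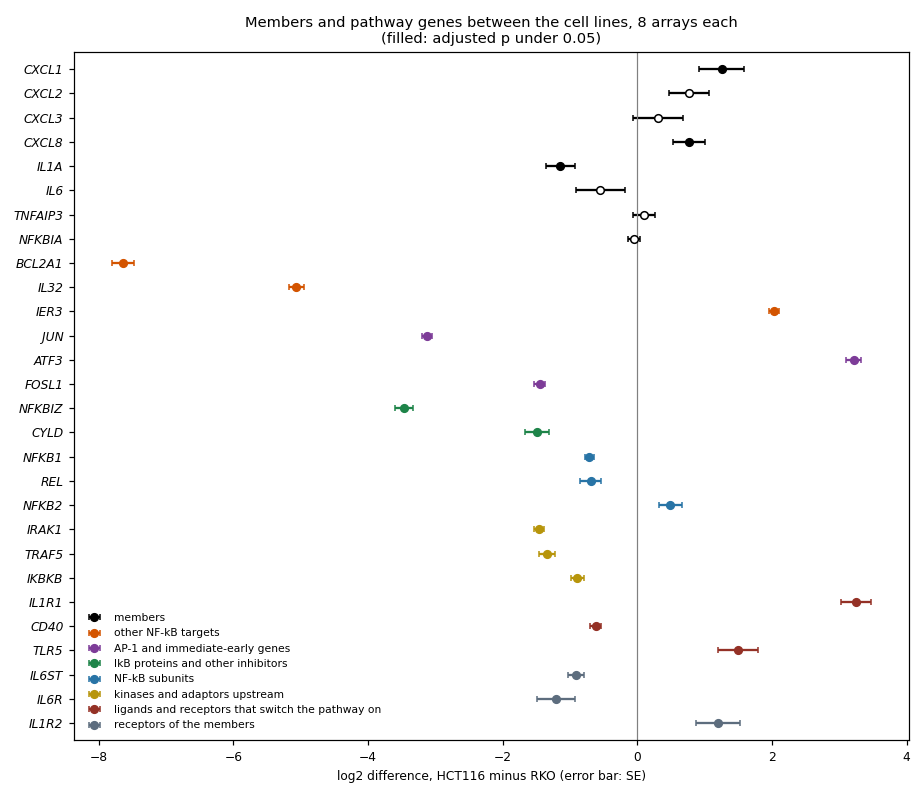
Points give the fitted log2 difference, HCT116 minus RKO, of the members and of up to 3 pathway genes per list, with the SE as error bar and filled points for an adjusted p under 0.05. The members lie between -1.15 and 1.25, while BCL2A1 lies at -7.64, IL32 at -5.07 and IER3 at 2.03.

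No member passed the test for any drug in either line. In HCT116, 7 members were tested and the share of all probe sets past the threshold was 0.744% for 5-aza-dC, 8.99% for TSA and 0% for PJ-34. In RKO, again with 7 members tested, it was 0% for 5-aza-dC, 0.00591% for TSA and 0% for PJ-34. These shares depend on single arrays. For 5-aza-dC in HCT116 there were 263 calls, and between 113 (without the 5-aza-dC array) and 1593 (without the TSA array) with 1 array left out, 19 without the variance trend and 2 without the filter. For RKO, 5-aza-dC gave 662 calls (1.95%) without the 2 arrays of doubtful label and 85 without the array labelled PJ-34 alone, against 0 with them. TSA in RKO gave 2 calls, 5 without those 2 arrays, and 0 to 78 with 1 array left out. At an unadjusted p under 0.05 there were 2 members for 5-aza-dC in HCT116 and 2 for TSA in RKO and none for the other 4 drug effects, beside 10.6% of all probe sets for 5-aza-dC, 24% for TSA and 3.74% for PJ-34 in HCT116, and 5.19%, 12.3% and 2.64% for the same drugs in RKO. The lowest adjusted p of a member was 0.245, for IL1A and TSA in HCT116. Bounds on the effects follow from their 95% intervals, and these were narrowest for NFKBIA, where all 6 intervals lay between -0.32 and 0.49 on the log2 scale. Those in RKO depend on the 2 arrays of doubtful label. Without them the NFKBIA estimates in RKO were 0.175 (SE 0.106) for 5-aza-dC, 0.23 (SE 0.13) for TSA and -0.169 (SE 0.13) for PJ-34. The bounds are of the brightest probe set, and a dimmer one of NFKBIA ran from 22.0 to 169.5 units in RKO, with 36.2 units in the control.

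**Figure D3:**
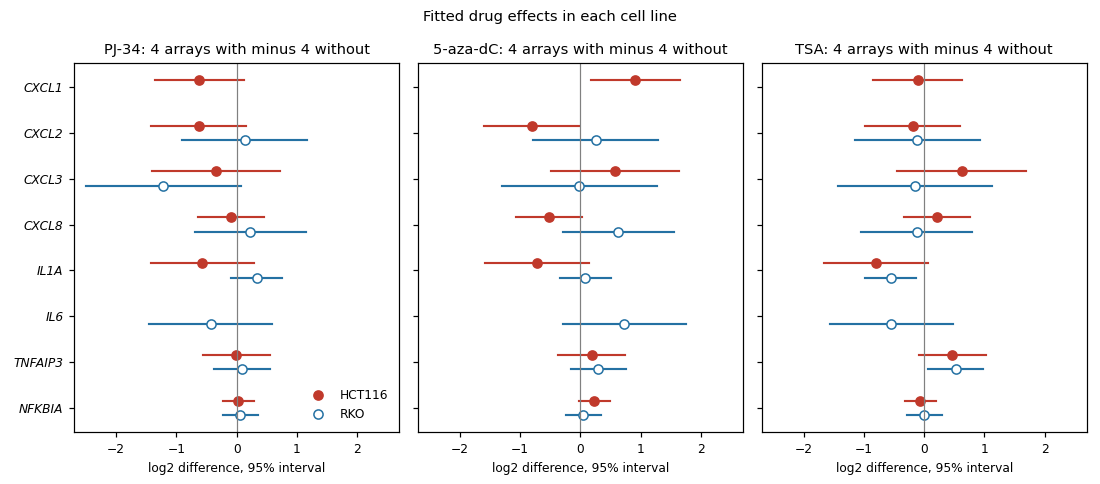
Each panel gives, for 1 drug, the fitted log2 difference between the 4 arrays with the drug and the 4 without it, with its 95% interval, in HCT116 (filled) and RKO (open). CXCL1 in RKO and IL6 in HCT116 were too dim to be tested. The intervals of NFKBIA span 0 in all panels, and those of CXCL3 are the widest in HCT116 and RKO.

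For 5-aza-dC, no chemokine passed the test, and the values differed between probe sets of CXCL2. CXCL1 in HCT116 had 354, 250.5, 372 and 219.7 units in the arrays with 5-aza-dC alone, with PJ-34, with TSA and with both, against 246, 109, 150.3 and 144 units in the arrays with the same other drugs and no 5-aza-dC. It was higher in 4 of 4 pairs, by a log2 difference of 0.91 (SE 0.342, adjusted p = 0.344 in limma). The arms overlapped, since the control array exceeded the array with all 3 drugs. CXCL2, its close relative, had 237, 157, 327.5 and 89.6 units with 5-aza-dC against 346.5, 338, 298.5 and 295 units without it, lower in 3 of 4 pairs (-0.81, SE 0.367, adjusted p = 0.457). A dimmer probe set of CXCL2, not tested, ran the other way, with 144.1, 71.3, 85.5 and 77.2 units with 5-aza-dC against 68.3, 32.7, 7.46 and 37.8 units without it, higher in 4 of 4 pairs with no overlap of the arms. Those arms parted only at 71.3 against 68.3 units, and 3 of the arrays without 5-aza-dC lay under 50 units. The third CXCL2 probe set, not tested, was under 50 units in 6 of 8 HCT116 arrays. After flooring it was higher with 5-aza-dC in 0 of 4 pairs and lower in 2. The direction for CXCL2 therefore differed between probe sets, of which the dimmer ones lay near the floor. CXCL8 in HCT116 had 368, 279, 534 and 388 units with 5-aza-dC against 535, 587, 469.8 and 605 units without (-0.52, SE 0.256, adjusted p = 0.503). By its second, dimmer probe set the difference in HCT116 was -0.0045 (SE 0.432, adjusted p = 0.999).

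In RKO, CXCL8 had 319, 426 and 378 units in the arrays with 5-aza-dC, 5-aza-dC/TSA and all 3 drugs, and 240.5 units in that labelled PJ-34/5-aza-dC. The arrays without 5-aza-dC had 144.5 units in the control, 191 with TSA, 140.0 with PJ-34/TSA, and 554 units in the array labelled PJ-34. Without those 2 arrays the arms did not overlap and the log2 difference was 1.24 (SE 0.355, adjusted p = 0.0994). With them it was 0.63 (SE 0.426, adjusted p = 0.882). The second, dimmer probe set of CXCL8 had 99.99, 245 and 292 units with 5-aza-dC, 5-aza-dC/TSA and all 3 drugs. It had 97.1, 93.4 and 117 units in the control, TSA and PJ-34/TSA arrays, so its arms overlapped without those 2 arrays also. Between the lines, by the brightest probe set, the effect of 5-aza-dC on CXCL8 differed by -1.15, HCT116 minus RKO (SE 0.471, adjusted p = 0.627 in limma), and by -1.61 (SE 0.455, adjusted p = 0.27) without the 2 RKO arrays of doubtful label. CXCL8 was the member with the smallest p in the tests of a drug effect between lines, where 0.0427% of all probe sets passed for 5-aza-dC, 0.283% for TSA and 0% for PJ-34. IL6 in RKO had 161, 199 and 163 units with 5-aza-dC, 5-aza-dC/TSA and all 3 drugs, and 122 units in that labelled PJ-34/5-aza-dC. The arrays without 5-aza-dC had 197.5 units in the control, 66.7 with TSA, 36.3 with PJ-34/TSA and 127 in the array labelled PJ-34. The arms overlapped, and the log2 difference was 0.73 (SE 0.471, adjusted p = 0.882), or 0.99 without the 2 arrays of doubtful label. IL6, the cytokine that signals through IL6R and IL6ST, was not tested in HCT116.

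For TSA, the arms of IL1A and TNFAIP3 did not overlap in RKO by their brightest probe sets, and neither gene passed the test. How often arms did not overlap over all probe sets was not counted for any drug, so this is a description only. In limma, 12.3% of all probe sets had an unadjusted p under 0.05 for TSA in RKO. IL1A in RKO had 376, 421, 367 and 434 units in the arrays with TSA, PJ-34/TSA, 5-aza-dC/TSA and all 3 drugs, against 464, 659.5, 538 and 712 units in the control array and the arrays labelled PJ-34, 5-aza-dC and PJ-34/5-aza-dC. The arms did not overlap, and the log2 difference was -0.56 (SE 0.196, adjusted p = 0.286), or -0.43 without the 2 arrays of doubtful label. In HCT116 it had 264, 238, 195 and 61.2 units with TSA against 279, 352, 349 and 201.5 units without, lower in 4 of 4 pairs, with overlapping arms (-0.80, SE 0.401, adjusted p = 0.245). TNFAIP3 in RKO had 475, 508, 535.5 and 678.5 units with TSA against 383, 304, 385 and 458 units without it, again with no overlap (0.52, SE 0.21, adjusted p = 0.347, and 0.39 without the same 2 arrays). In HCT116 it had 646, 601, 462 and 586 units with TSA against 374, 293.5, 495 and 529 units without, higher in 3 of 4 pairs (0.47, SE 0.258, adjusted p = 0.297). The second probe set of TNFAIP3 had 209.9, 245, 202.5 and 216 units with TSA in RKO and 197, 264, 223 and 188 units without, so its arms overlapped.

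For PJ-34, the members' estimates in HCT116 ran from -0.63 for CXCL2 to 0.03 for NFKBIA. CXCL1 was lower with PJ-34 in 4 of 4 pairs, with 109, 250.5, 144 and 219.7 units against 246, 354, 150.3 and 372 units without it (-0.62, SE 0.342, adjusted p = 0.981). In RKO, CXCL3 had 114.5 units in the array labelled PJ-34, 16.1 in that labelled PJ-34/5-aza-dC, 25.7 with PJ-34/TSA and 37.1 with all 3 drugs, against 63.9 in the control and 260, 216 and 116 units with 5-aza-dC, TSA and 5-aza-dC/TSA. This was the largest drug estimate of any member (-1.22, SE 0.591, adjusted p = 1), and it was -1.66 (SE 0.809) without both arrays of doubtful label. The 3 CXCL3 signals under 50 units were all in arrays labelled with PJ-34 and were set to 50. The size of this estimate therefore rests partly on floored values, with and without the arrays of doubtful label. PJ-34 gave no call anywhere on the array in either line. None of the 8 members tested over both lines passed for a pair of drugs acting together, and 0% of probe sets did in each of these 3 tests.

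Single treated arrays can be set against the control array of their line, with no replicate. In HCT116, the number of members at least 2-fold from control was 1 of 7 with PJ-34 (CXCL1, lower), beside 12.7% of all probe sets, 0 with 5-aza-dC (14%), 0 with TSA (21.4%), 1 with PJ-34/5-aza-dC (CXCL2, lower, 21%), 0 with PJ-34/TSA (17.4%), 1 with 5-aza-dC/TSA (CXCL3, higher, 18.1%) and 2 with all 3 drugs (CXCL2 and IL1A, lower, 21.8%). In RKO it was 1 of 7 in the array labelled PJ-34 (CXCL8, higher), beside 12.7% of all probe sets, 2 with 5-aza-dC (CXCL3 and CXCL8, higher, 13%), 2 with TSA (CXCL3 higher and IL6 lower, 11.5%), 0 in that labelled PJ-34/5-aza-dC (11.3%), 1 with PJ-34/TSA (IL6, lower, 12.1%), 1 with 5-aza-dC/TSA (CXCL8, higher, 13.3%) and 1 with all 3 drugs (CXCL8, higher, 17.2%). These counts lie near the share of the whole array. All 7 ratios of a line share its control array, and CXCL8 in RKO was lowest in that control and in the PJ-34/TSA array.

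TSA in HCT116 gave calls among the genes around the members. The test called 1 of 16 kinases and adaptors higher and 1 lower, 2 of 10 ligands and receptors lower, 4 of 18 other NF-kB targets lower, 1 of 4 receptors of the members lower and 5 of 11 AP-1 and immediate-early genes lower, and none of the 5 NF-kB subunits or, by their brightest probe sets, the 7 inhibitors, beside 4.16% higher and 4.83% lower of all probe sets tested. These counts use the brightest probe set of each gene, while the shares run over all probe sets. Over all probe sets of each list, 4 of 38 were lower for other NF-kB targets and 5 of 23 for AP-1 and immediate-early genes. Lower calls were 1 of 9 for the receptors of the members and 2 of 19 for ligands and receptors. Of 29 for kinases and adaptors, 1 was higher and 1 lower. A dimmer probe set of the inhibitor NFKBIB was called higher (1.78, SE 0.495, adjusted p = 0.0384). The list medians were 0.188 for the inhibitors, -0.00616 for the subunits, -0.0238 for ligands and receptors, -0.0431 for kinases and adaptors, -0.181 for other NF-kB targets, -0.472 for the AP-1 and immediate-early genes and -0.609 for the receptors of the members, beside -0.07 over all probe sets tested. CEBPB, a transcription factor that acts with NF-kB at IL6 and CXCL8, had 10030, 7725, 8711 and 11180 units with TSA, PJ-34/TSA, 5-aza-dC/TSA and all 3 drugs, against 21020, 21170, 17780 and 19400 units without TSA. The arms were far apart (-1.09, SE 0.123, adjusted p = 3.71e-04), and the TSA effect on CEBPB differed between the lines (HCT116 minus RKO -0.87, SE 0.145, adjusted p = 0.024), the only called gene of these lists in that test. It was -0.76 with an adjusted p = 0.0866 without the 2 RKO arrays of doubtful label, and the call was lost in 14 of 21 alternatives. EGR1, an immediate-early transcription factor, had 12700 to 25650 units with TSA and 28580 to 63450 units without (-1.24, SE 0.229, adjusted p = 0.00576). JUNB (-0.72), JUN (-0.47) and JUND (-0.38), which encode AP-1 subunits, were also lower.

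IER3, an NF-kB target, had 42780, 46880, 46380 and 55380 units with TSA against 68190, 75380, 65190 and 66550 units without (-0.53, SE 0.0946, adjusted p = 0.00489). LIF, a cytokine of the interleukin-6 family, had 1054 to 1737 units with TSA and 1778 to 3183 units without (-0.89, adjusted p = 0.0174), and TNFAIP8 (-0.56) and BIRC2 (-0.49), a relative of BIRC3, were the other lower targets. Of the receptors, TNFRSF1A, the main receptor for tumor necrosis factor, was lower by -0.66, IL1R1 by -0.63 and IL6ST by -0.79. CHUK, which encodes the kinase IKKα, was the single gene called higher by its brightest probe set (0.61, SE 0.139, adjusted p = 0.0165), and TRAF5 was lower (-0.78). CEBPB, EGR1 and IER3 kept their calls in 11 of 13 alternatives, and the other genes called lost theirs in 5 to 11 of 13. Without the variance trend, 0 probe sets passed for TSA in HCT116, and leaving out 1 array gave between 928 calls (without PJ-34) and 5426 (without PJ-34/5-aza-dC), against 3180. In these lists no gene was called for 5-aza-dC or PJ-34 in HCT116, nor for any drug in RKO.

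**Figure D4:**
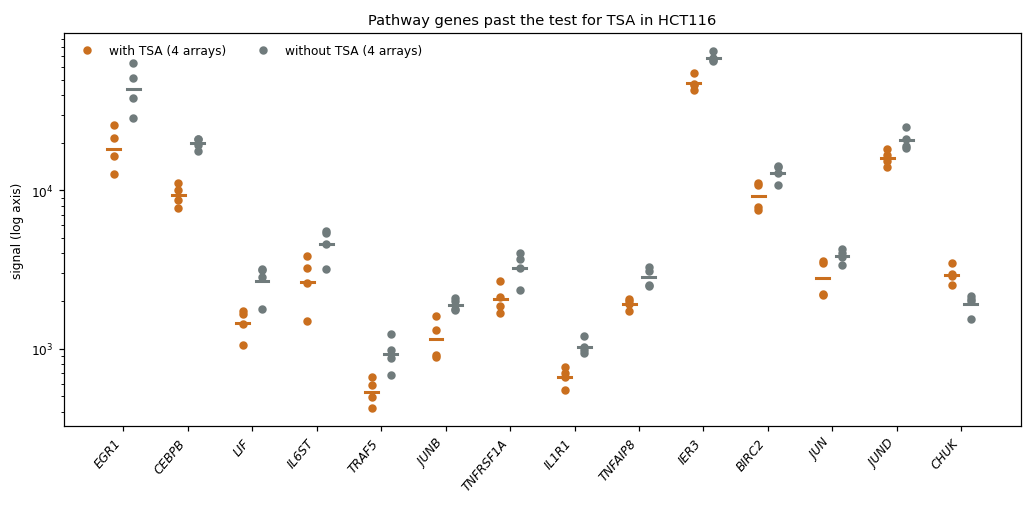
Each gene of the pathway lists that passed the test for TSA in HCT116 is shown with the signals of the 4 arrays with TSA at the left and the 4 without at the right, on a log axis, with the geometric mean as a bar. The arms overlap for JUN, TNFRSF1A, BIRC2 and IL6ST and not for the other genes shown, and CHUK is the gene that was higher with TSA. The genes were picked by this same test, and how often arms did not overlap over all probe sets was not counted.

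Correlations between members across arrays had both signs. After each line's mean was taken out, Pearson's r between pairs of members over the 16 arrays ran from -0.459 (IL1A and TNFAIP3) to 0.695 (CXCL2 and CXCL8). Over the same arrays the r between CXCL1 and CXCL2 was 0.12 and that between TNFAIP3 and NFKBIA -0.02. For probe sets of the same gene, r was 0.57 for CXCL8, 0.20 for NFKBIA, 0.18 for IL1A and 0.02 for TNFAIP3, and 0.187, 0.0829 and -0.155 for the 3 pairs of CXCL2 probe sets. The points of each correlation share arrays, scaling and the signal floor, so these values are a description only. Probe sets of the same gene, other than those of CXCL8, also had low r. Low r between members therefore cannot show whether they vary together, and r over other gene pairs was not computed. The second probe sets were dim, that of IL1A lying under 50 units in 5 of 8 HCT116 arrays and 6 of 8 RKO arrays. The brightest probe sets of CXCL2 and CXCL8 carry the suffix by which Affymetrix marks probes that may also match other transcripts. Which transcripts these may be was not examined. The genes most like CXCL8 over the 16 arrays, among 6521 genes that varied enough to be ranked, were SH3RF2 (r = 0.827), CDKN2A (0.821), MTERF1 (0.801), ENG (0.794) and C7orf57 (0.793). They are the top of a ranking by the brightest CXCL8 probe set in these same arrays, so they are a description only. Their lowest signals were 42.6, 47.9, 9.19, 10.9 and 1.38 units, all under the floor of 50.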

How the data were processed

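The deposited table holds linear signal intensity per probe set, which the authors computed in Affymetrix GCOS with scaling to a shared trimmed mean (no version given in the sources used here). It holds no detection calls, and the number of arrays limits precision. Arrays were grouped by their labels. From these intensity values, 62 control probe sets were left out, a floor of 50 units was applied and values were log2 transformed. Probe sets with at least 100 units in 4 or more arrays of the line (or of the 16) were tested: 35373 in HCT116, 33862 in RKO and 42119 over both. The model per line had the 3 drugs as additive terms, and the model over both lines added the line, line-by-drug and drug-by-drug terms. Tests used limma 3.58.1 in R 4.3.3 (lmFit, eBayes with trend, two-sided), with Benjamini-Hochberg adjustment over all probe sets tested and a threshold of 0.05. Each condition had 1 array, so the error in each test came from the residuals of the fitted model and not from repeat cultures. The p-values therefore do not measure the spread between cultures. The fits were tested on simulated data. The platform annotation named 41097 of 54675 probe sets by 1 gene, 1801 by several and 11777 by none, and 41043 gene numbers matched RefSeq, from which promoter windows came. The members and gene lists were chosen with earlier results of these data known. Named genes were all members, up to 3 pathway genes per list and comparison with the smallest p among those called, and the 5 genes most like CXCL8 by Pearson's r. BIRC2, JUN and JUND for TSA, and the dimmer probe sets of CXCL2, NFKBIB and OTUD7B, were added after their values were seen. Alternatives were a floor of 20, no filter, quantile normalization, all 16 arrays in 1 fit, no variance trend, every probe set of a gene, each array left out in turn and both RKO arrays of doubtful label left out.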

Additional observations from a re-analysis of the deposited data

Results flagged for a closer look

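In 2 of 17 checks of a member over the 8 arrays of a line, 1 array stood apart from the rest. Applied to normally spread values, the test used (Dixon's, at the 95% level) marks about 1 in 20 such groups by chance, and that rate was not checked for these floored signals. CCL20 had 367.9 units in the RKO array with 5-aza-dC/TSA, while the other 7 RKO arrays had 7.52 to 58 units. The RKO array with all 3 drugs, which also held both agents, had 58 units, and the HCT116 array with 5-aza-dC/TSA had 31.9 units. IL1A had 61.15 units under all 3 drugs in HCT116, while the other 7 arrays of that line had 195 to 352 units. The second probe set of IL1A had 19.1 units in that array and under 50 units in 4 other HCT116 arrays, so it does not set this array apart. Neither condition had a repeat array, and the cause was not tested.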

How the results depend on the processing

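No paired analysis was possible because every array carries the replicate number 1, so the labels give no replicate block. Arrays of matched condition were set against each other through the drug terms of the model. The count of members past the test was 0 for each drug, line-by-drug and drug-by-drug comparison under every alternative run, and between 2 and 4 for HCT116 minus RKO. CXCL1 and IL1A kept their line difference in all 21 alternatives, and CXCL8 lost it in 4, among them no filter on low signals (adjusted p = 0.0532). The signs that turned belonged to values that did not pass the test, and the cause was not tested. Under quantile normalization they were 0.0438 for CXCL1 and TSA in HCT116, 0.0439 for TNFAIP3 and PJ-34 in HCT116, -0.00881 for IL1A and 5-aza-dC in RKO and 0.0145 for NFKBIA and TSA in RKO. With both RKO arrays of doubtful label left out they were 0.377 for CXCL3 and 5-aza-dC, 0.299, 0.412 and 0.230 for CXCL3, CXCL8 and NFKBIA with TSA, -0.313 and -0.169 for CXCL8 and NFKBIA with PJ-34, all in RKO, and 0.000934 for NFKBIA between the lines. Leaving out 1 array at a time, the HCT116 values ran from -0.0138 to 0.382 for TNFAIP3 with 5-aza-dC, from -0.235 to 0.0437 for CXCL1 and -0.503 to 0.118 for CXCL2 with TSA, and from -0.276 to 0.0751 for CXCL8, -0.202 to 0.194 for TNFAIP3 and -0.0409 to 0.120 for NFKBIA with PJ-34. In RKO they ran from -0.0787 to 0.738 for CXCL2, -0.638 to 0.391 for CXCL3 and -0.0896 to 0.200 for NFKBIA with 5-aza-dC, from -0.594 to 0.273 for CXCL2, -0.771 to 0.258 for CXCL3, -0.451 to 0.466 for CXCL8 and -0.135 to 0.155 for NFKBIA with TSA, and from -0.254 to 0.612 for CXCL2, -0.368 to 0.561 for CXCL8 and -0.0944 to 0.195 for NFKBIA with PJ-34. Between the lines they ran from -0.0471 to 0.623 for CXCL3 and from -0.108 to 0.0253 for NFKBIA. With both doubtful arrays left out, 662 probe sets passed for 5-aza-dC in RKO, against 0 with them, and no member was among them. Signals near 50 units have no order below the floor, which limits CXCL1 in RKO, CXCL3, IL6 and CCL20.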
